A study of Rattus norvegicus with 15 samples.

Results

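The complement system was followed here through 34 genes, named by symbol from general knowledge of the cascade, with earlier results of these data known. Of the 34 genes, 33 had a row in the deposited table of 32623 genes, and 31 had enough reads to be tested together with 14417 genes in all, 13628 of them protein coding. Mbl2 was not analysed here. Cfb and Cd55 had too few reads to be tested and are described by their counts.

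The livers came from male Wistar rats that weighed 75 to 100 g at the start. The control group (4 rats analysed here) received no treatment. The cirrhosis group (5 rats) inhaled carbon tetrachloride (CCl4), which injures hepatocytes in the centre of the lobule, for 12 weeks with phenobarbital at 0.35 g/L in the drinking water. The cirrhosis & eplerenone group (5 rats) had the same CCl4 and phenobarbital and took eplerenone, an inhibitor of the mineralocorticoid receptor, at 100 mg/kg in hazelnut spread from week 8 until week 12. The 3 comparisons ask how far complement genes of the cirrhotic liver differ from control, how far they still differ in treated rats, and whether treated and untreated cirrhotic rats differ. Livers were taken 7 to 10 days after the last CCl4. Phenobarbital is shared by both CCl4 groups and absent from the controls, so its part cannot be told apart from that of CCl4. By the account of the study, the sequenced rats were picked for successful induction of cirrhosis or successful treatment, which limits what the groups stand for. The labels list 5 controls, and control replicate 1 was not analysed here.

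Complement is a cascade of plasma proteins that coats microbes and damaged cells, calls in leukocytes and can pierce membranes. The classical pathway starts with C1q and its proteases, the lectin pathway with mannose-binding lectins and the MASP proteases, and the alternative pathway with factors B and D and properdin. All of them meet at C3, and the terminal components C5 to C9 then assemble into the membrane attack complex, while soluble and membrane-bound regulators hold the cascade back. Hepatocytes make most of the plasma components, macrophages make C1q and properdin, and C7 comes largely from other cells.

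Levels are given as FPM, reads of a gene per 1000000 counted reads after scaling the libraries with TMM (trimmed mean of M values). Each library held 16157491 to 21574767 counted reads, so 3 reads stood for 0.121 to 0.191 FPM. FPM is not divided by gene length, and levels are therefore compared only between rats and not between genes. A gene was called where the false discovery rate over all genes tested was below 0.05 in both edgeR and DESeq2. The log2 fold changes (log2FC), standard errors (SE) and adjusted p-values are those of edgeR's quasi-likelihood test unless DESeq2 is named. The rats of a group differed. On the first principal component of the 500 genes that varied most, 4 cirrhosis rats lay between -47.7 and -38.0 while replicate 5 lay at 13.03, and the treated rats ran from -42.6 (replicate 3) to 26.8 (replicate 2), against 44.3 to 50.6 in control. The summed markers of hepatocytes (8 genes, Alb among them) ran from 174405 to 202732 FPM in controls, from 136851 to 193708 FPM in cirrhosis rats and from 106627 to 196564 FPM in treated rats, and none was at 0. Alb gave most of this sum, and the single markers went both ways in cirrhosis. Apoa1 and Tf had a positive log2FC (0.74 and 0.59) and the others a negative one, with Hnf4a alone called (-0.81). In whole liver, fewer cells of a type and less RNA per cell cannot be told apart. A number that leads the sample names is 13 or 16 in controls and 15 or 20 in CCl4-treated rats, and its meaning is not given, so it cannot be told apart from CCl4.

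Between cirrhosis and control, complement genes were called in both directions and most were not called. Of the 31 tested, 3 rose (C7, C5ar1 and Clu), which is 9.68% against 13.8% of all protein coding genes, and 3 fell (Masp1, C8a and C6), which is 9.68% against 6.72%. The median log2FC of the 31 genes was -0.02, beside -0.01 for all protein coding genes tested, and their median absolute log2FC was 0.40, beside 0.49. DESeq2 alone called 8, adding C5 and Cd59. For 8 of the 31 genes (25.8%) the values of the 2 groups did not overlap, beside 20.5% of all protein coding genes, and these were C7, Clu, C5 and C4bpb, all higher in cirrhosis, and Masp1, C8a, Vtn and Cd59, all lower. The intervals of 16 of the 31 log2FC values lay within -1 and 1, so a 2-fold change in either direction lay outside the 95% interval of these 16. Between cirrhosis & eplerenone and control, C7 was called higher (3.23% of the 31, against 4.50% of all protein coding genes) and C6 lower (3.23% against 0.829%). For 4 of the 31 genes (12.9%) the values of these 2 groups did not overlap, beside 11.1% of all protein coding genes. C7 was higher in the treated rats, and C8g, Masp2 and Serping1 were lower. Both comparisons share the same 4 control rats.

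**Figure D1:**
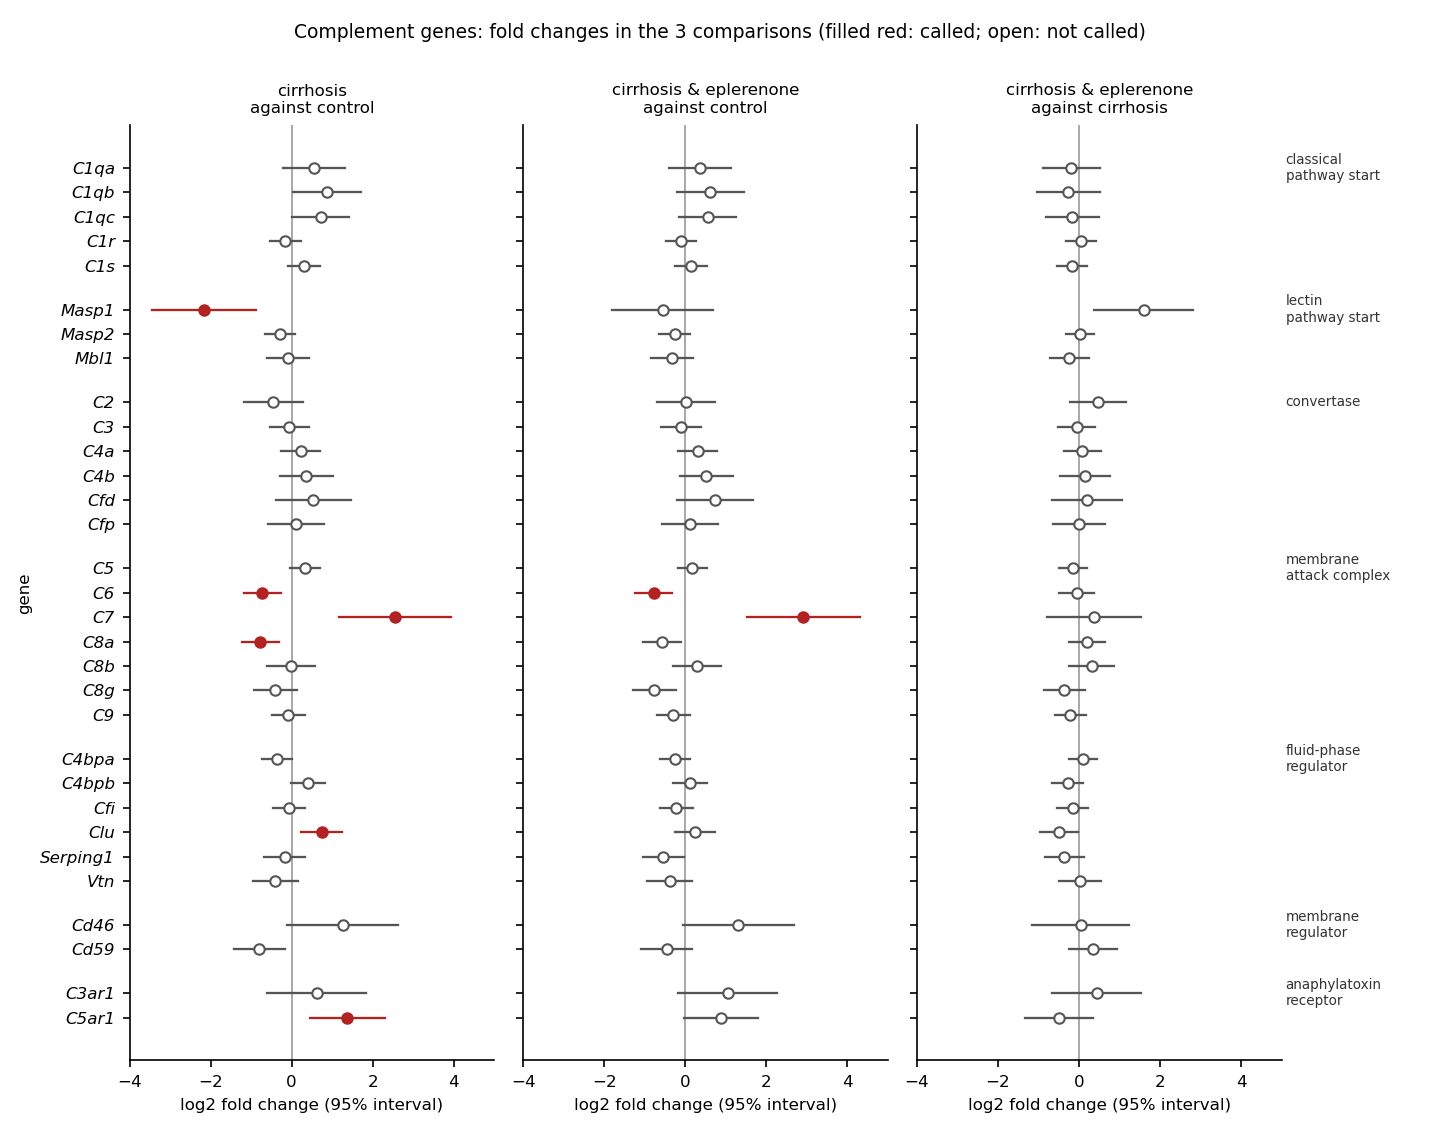
Log2 fold change (horizontal axis, point) with its 95% interval (line) of the 31 complement genes tested, ordered by role, in the 3 comparisons. Filled red points were called by both tools: 6 for cirrhosis against control, 2 for cirrhosis & eplerenone against control and 0 for cirrhosis & eplerenone against cirrhosis.

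The terminal components were called in both directions. C7 (ENSRNOG00000061379) binds the C5b-6 complex and lets it enter membranes. Its level was 0.965, 2.43, 1.04 and 2.42 FPM in control replicates 2 to 5. In cirrhosis replicates 1 to 5 it was 6.49, 27.1, 4.26, 6.0 and 6.31 FPM, and with eplerenone 19.6, 8.14, 25.0, 7.34 and 4.48 FPM. Every CCl4-treated rat lay above every control, and 3 rats (cirrhosis replicate 2, eplerenone replicates 1 and 3) lay far above their group. C7 was 5.86-fold higher in cirrhosis (log2FC 2.55, SE 0.65, adjusted p = 0.0151) and 7.53-fold higher with eplerenone (log2FC 2.91, SE 0.66, adjusted p = 0.0192). The first call held in each of 14 fits that left out 1 rat, with a log2FC of 1.75 without cirrhosis replicate 2. The second was lost without control replicate 2, 4 or 5 or eplerenone replicate 3, at a log2FC of at least 2.52 and an adjusted p of at most 0.0646. The 7 measured markers of stellate cells and myofibroblasts, none at 0 in any group, had sums from 145 to 240 FPM in controls, from 268 to 499 FPM in cirrhosis rats and from 385 to 499 FPM with eplerenone. Their sum, to which Col3a1 gave most, was higher in every CCl4-treated rat than in any control. The same held for Col1a1, Col3a1, Dcn and Des singly, but not for Acta2, Pdgfrb and Lrat. The mean of Lrat was 16.9 FPM in control and 7.93 FPM in cirrhosis. Cirrhosis replicate 2, with the highest C7 of its group, had a sum of 313 FPM, and treated replicate 3, with the highest C7 of its group, had the highest sum of its group. Their part in the C7 result was not tested.

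C6 (ENSRNOG00000024115), which joins C5b as the next step of the complex, went the other way. Its level was 206, 348, 307 and 337 FPM in control, 225, 193, 180.2, 153 and 154 FPM in cirrhosis, and 167, 179.8, 117, 232 and 177 FPM with eplerenone. Control replicate 2 lay within the range of the CCl4-treated rats and the other 3 controls lay above all of them. C6 fell by 0.73 on the log2 scale in cirrhosis (SE 0.21, adjusted p = 0.0293) and by 0.78 with eplerenone (SE 0.21, adjusted p = 0.0471). The first call was lost without cirrhosis replicate 3 or 4 or control replicate 3, 4 or 5 (adjusted p at most 0.0872). The second was lost in 11 of 14 such fits (adjusted p at most 0.145), and leaving out 1 rat kept its log2FC between -0.92 and -0.66.

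C8a (ENSRNOG00000007697), the alpha chain of C8, was 642, 974, 842 and 1030.1 FPM in control and 397, 628, 488, 473 and 564 FPM in cirrhosis, without overlap. It fell by 0.77 on the log2 scale (SE 0.22, adjusted p = 0.0237), a call that was lost without cirrhosis replicate 1, 3 or 4 or control replicate 3 or 5 (adjusted p at most 0.0802). With eplerenone it was 565, 717, 399.8, 668 and 571 FPM and was not called against control (log2FC -0.58, SE 0.22, adjusted p = 0.14). The other 2 chains of the same protein were not called in any comparison. C8b, the beta chain, had a log2FC of -0.02 (SE 0.28) in cirrhosis and ranged from 191 to 516 FPM in control alone. C8g, the gamma chain, had a log2FC of -0.40 (SE 0.25) in cirrhosis and -0.76 (SE 0.25, adjusted p = 0.0871) with eplerenone, where DESeq2 alone called it. C9, which polymerises into the pore, had a log2FC of -0.08 (SE 0.19) in cirrhosis and -0.30 (SE 0.19) with eplerenone.

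C5, whose cleavage starts the terminal sequence, was 424, 509.99, 543 and 563 FPM in control, 632, 691, 644, 634 and 613 FPM in cirrhosis and 572, 437, 565, 635 and 671 FPM with eplerenone. All 5 cirrhosis rats lay above all 4 controls, and the treated rats overlapped both. The log2FC in cirrhosis was 0.33 (SE 0.17), which edgeR did not call (adjusted p = 0.172) and DESeq2 did (adjusted p = 0.0476).

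C6 and C8a are hepatocyte-made terminal components that both fell in cirrhosis, and the 250 bases before their transcription starts are shown with the places in capitals that hold TTGCNNAA (C/EBP type) or TTCNNNGAA (STAT type) on either strand. The sequences are those of RefSeq on GRCr8, a later build than the rn6 on which the reads were counted.
C6, chr2:55573383-55573632, plus strand: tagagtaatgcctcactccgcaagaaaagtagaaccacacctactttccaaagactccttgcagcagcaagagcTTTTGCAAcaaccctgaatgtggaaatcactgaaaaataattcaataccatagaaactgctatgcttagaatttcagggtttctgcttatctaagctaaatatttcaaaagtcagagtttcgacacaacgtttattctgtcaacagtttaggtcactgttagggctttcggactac
C8a, chr5:124866632-124866881, minus strand: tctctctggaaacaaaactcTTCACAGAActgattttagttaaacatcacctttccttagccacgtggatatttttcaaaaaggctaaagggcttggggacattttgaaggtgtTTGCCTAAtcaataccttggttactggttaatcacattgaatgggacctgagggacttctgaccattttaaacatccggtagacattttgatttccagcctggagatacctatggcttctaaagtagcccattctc
Both hold TTGCNNAA, C6 on the minus strand, and the matches do not overlap. Promoters of 22 of the 34 genes were in the table, and TTGCNNAA was found in 6 of them (C3, C6, C8a, C8b, C4bpa and C1r), or 27.3%, beside 9.22% of 33469 promoters. TTCNNNGAA was found in 4 (C8a, C4bpb, Vtn and C1qa), or 18.2% beside 7.67%, AGGAAGT (ETS type) in C4bpb and C1qb, 9.09% beside 7.08%, and TATAAA in 0, beside 12.9%. The motif was present in genes that were called and in genes that were not, such as C3, C8b and C1r. A match describes the letters and not a site that a factor binds.

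Of the 3 lectin pathway genes tested, 1 fell in cirrhosis and 2 were not called. Masp1 (ENSRNOG00000001827) encodes MASP-1, which activates MASP-2. It was 32.3, 54.1, 55.4 and 78.6 FPM in control and 6.32, 16.6, 5.18, 6.97 and 26.6 FPM in cirrhosis, without overlap. It fell by 2.16 on the log2 scale (SE 0.60, adjusted p = 0.0233), to 0.224 of the control level. The call was lost without cirrhosis replicate 1, 3 or 4 or control replicate 5, at an adjusted p of at most 0.0699 and a log2FC of at most -1.94. With eplerenone Masp1 was 40.6, 96.9, 10.8, 25.2 and 13.9 FPM, so that 2 rats lay in or above the control range and 3 lay below it. Against control the log2FC was -0.56 (SE 0.59, adjusted p = 0.67).

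Masp2, the protease that cleaves C4 and C2, and Mbl1, a mannose-binding lectin, were not called. Masp2 had a log2FC of -0.29 (SE 0.18) in cirrhosis and -0.27 (SE 0.18) with eplerenone. Mbl1 had -0.09 (SE 0.24) and -0.33 (SE 0.24). The ratio of Masp1 to Masp2 reads within each rat ran from 0.101 to 0.275 in controls, from 0.0192 to 0.0912 in cirrhosis rats and from 0.0493 to 0.348 with eplerenone.

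The 3 chains of C1q, the recognition protein of the classical pathway, were high and low in the same rats and were not called. C1qa was 83.9, 59.2, 105 and 71.9 FPM in control, 187, 55.4, 168, 95.7 and 79.6 FPM in cirrhosis, and 84.0, 53.0, 143, 90.1 and 142 FPM with eplerenone. Only cirrhosis replicates 1 and 3 and treated replicates 3 and 5 lay above all controls, and cirrhosis replicate 2 and treated replicate 2 lay below all of them. The log2FC in cirrhosis was 0.55 (SE 0.36) for C1qa, 0.88 (SE 0.39) for C1qb and 0.72 (SE 0.33) for C1qc. The p-values before adjustment by edgeR were 0.143, 0.0406 and 0.0447, and after it 0.267, 0.117 and 0.125. With eplerenone the log2FC against control was 0.36, 0.62 and 0.55 in the same order, with SE of 0.33 to 0.39.

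Across the 14 rats the levels of C1qa spanned 1.82 on the log2 scale, those of C1qb 2.11 and those of C1qc 1.72, while the ratio of C1qb to C1qa spanned 0.67 and that of C1qc to C1qa 0.60. The ratio of C1qb to C1qa was 0.638 to 0.822 in control and 0.828 to 0.986 in cirrhosis, neighbouring ranges that do not overlap, and 0.713 to 1.02 with eplerenone. Cfp (properdin), which stabilises the alternative pathway convertase and is made by myeloid cells, was highest in cirrhosis replicate 1 and treated replicate 5 (79.9 and 72.5 FPM) and lowest in cirrhosis replicate 2 (22.9 FPM). Its log2FC was 0.11 (SE 0.32) in both CCl4 groups.

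**Figure D2:**
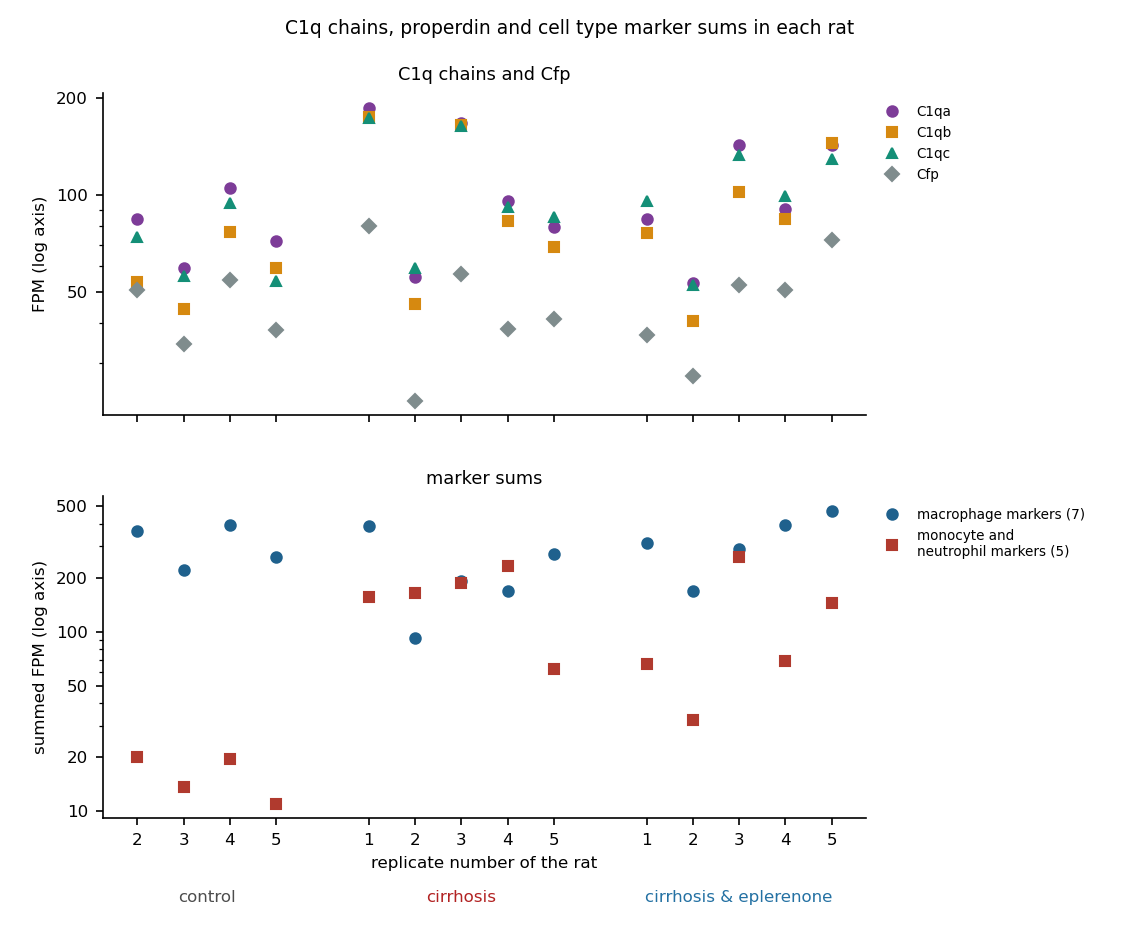
FPM (log axis) of C1qa, C1qb, C1qc and Cfp (top) and summed FPM (log axis) of 7 macrophage and 5 monocyte and neutrophil markers (bottom) in each of the 14 rats, ordered by group and replicate number. The 3 C1q chains keep close to each other in every rat, the macrophage sum of cirrhosis rats lies within or below the control range of 221 to 392, and the monocyte and neutrophil sum lies above the controls in every CCl4-treated rat.

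The 7 measured macrophage markers, none at 0 in any group, had sums from 221 to 392 FPM in controls, from 92.5 to 390 FPM in cirrhosis rats and from 170 to 473 FPM with eplerenone. Of them, Cd163 fell in cirrhosis (log2FC -1.22, adjusted p = 0.0163) and 6 were not called. Clec4f, which gave the largest share of the sum in control, had a log2FC of -1.09 (SE 0.57), while Cd68 had 0.74 (SE 0.26), called by DESeq2 alone, and Csf1r 0.59 (SE 0.24). The 5 measured monocyte and neutrophil markers had sums from 11.0 to 20.1 FPM in controls, from 62.3 to 232 FPM in cirrhosis rats and from 32.2 to 260 FPM with eplerenone, and 1 of them was at 0 in every control. Cirrhosis replicate 2 had the lowest macrophage sum and the lowest C1q of its group, while its monocyte and neutrophil sum was 163. Cirrhosis replicate 5 had a higher macrophage sum than replicate 3 (271 beside 191 FPM) but less C1qa (79.6 beside 168 FPM). In the treated group replicate 3 had the highest C1qa at a macrophage sum of 290 FPM, while replicate 5 had the highest sum (473 FPM). The part of these cells in the C1q values was not tested.

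C1qa and C1qb start 12.1 kb apart on GRCr8, and the bases before their starts are shown because their levels were high and low in the same rats.
C1qa, chr5:154419934-154420183, minus strand: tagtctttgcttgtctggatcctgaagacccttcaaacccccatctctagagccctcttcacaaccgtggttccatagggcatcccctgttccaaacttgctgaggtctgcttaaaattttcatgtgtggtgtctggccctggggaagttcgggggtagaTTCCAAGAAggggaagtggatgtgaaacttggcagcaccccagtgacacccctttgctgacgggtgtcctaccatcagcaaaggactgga
C1qb, chr5:154407828-154408077, minus strand: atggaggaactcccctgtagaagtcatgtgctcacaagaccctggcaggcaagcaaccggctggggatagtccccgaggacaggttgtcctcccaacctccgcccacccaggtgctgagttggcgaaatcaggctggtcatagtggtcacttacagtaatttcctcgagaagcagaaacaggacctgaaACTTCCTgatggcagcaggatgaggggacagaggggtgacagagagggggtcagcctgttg
The capitals mark TTCNNNGAA in C1qa and AGGAAGT, on the minus strand, in C1qb. They share none of the 4 motifs that were searched.

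The proteases of C1 were not called. C1r, which activates C1s, had a log2FC of -0.15 (SE 0.18) in cirrhosis and -0.11 (SE 0.18) with eplerenone, and C1s, which cleaves C4 and C2, had 0.31 (SE 0.19) and 0.14 (SE 0.19). Their ratio (C1s to C1r) was 0.657 to 0.752 in control and 0.77 to 0.961 with eplerenone, without overlap, and 0.715 to 1.19 in cirrhosis.

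C3, the component on which all pathways meet, was at 10777, 13099, 11185 and 14347 FPM in control, 12491, 10518, 15251, 10149.9 and 11136 FPM in cirrhosis, and 11685, 12888, 7735, 12182 and 12593 FPM with eplerenone. The groups overlapped throughout, and treated replicate 3 lay below all other rats. The log2FC was -0.05 in cirrhosis (SE 0.23, 95% interval -0.54 to 0.44) and -0.11 with eplerenone (SE 0.23, interval -0.60 to 0.37), so a 2-fold change in either direction lay outside both intervals. The sign of these values depended on the scaling, with 0.23 and 0.17 when libraries were scaled to total counts, a scaling that moved the median log2FC of all genes to 0.28 and 0.32.

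The genes of the convertases were not called in any comparison. C4a and C4b, 2 copies of the component that C1s and MASP-2 cleave, had a log2FC of 0.23 (SE 0.22) and 0.36 (SE 0.31) in cirrhosis and of 0.31 (SE 0.23) and 0.52 (SE 0.31) with eplerenone. Reads that fit both copies were counted at each, so their separate values are uncertain. C2, the partner of C4 in the convertase, had -0.45 (SE 0.34) and 0.02 (SE 0.34). Cfd (factor D), the protease that cuts factor B, had 0.53 (SE 0.44) and 0.73 (SE 0.44), and was highest in cirrhosis replicate 1 (23.5 FPM) and treated replicate 5 (23.2 FPM). Cfb (factor B), which liver is known to make, had 0 to 7 reads per library (0 to 0.286 FPM) and a second entry of the same name had 0 in all, too few to be tested. Whether overlapping gene entries bear on this low count was not tested.

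Among the soluble regulators, 1 of 6 was called, Clu (ENSRNOG00000016460). Clu encodes clusterin, which binds the nascent attack complex and is also a chaperone made by many cells. It was 1436, 1320.3, 1118 and 1393 FPM in control, 2106, 1559, 2764, 3047 and 1526 FPM in cirrhosis and 1477, 1565, 1259.6, 1646 and 1823 FPM with eplerenone. All cirrhosis rats lay above all controls, with replicates 2 and 5 just above them, and the treated rats overlapped both groups. Clu rose 1.67-fold in cirrhosis (log2FC 0.74, SE 0.24, adjusted p = 0.0413). The call was lost without cirrhosis replicate 1, 3 or 4, any 1 of the 4 controls, or treated replicate 4, at a log2FC of 0.61 to 0.85 over all such fits and an adjusted p of at most 0.109. With eplerenone the log2FC against control was 0.24 (SE 0.24, adjusted p = 0.643).

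**Figure D3:**
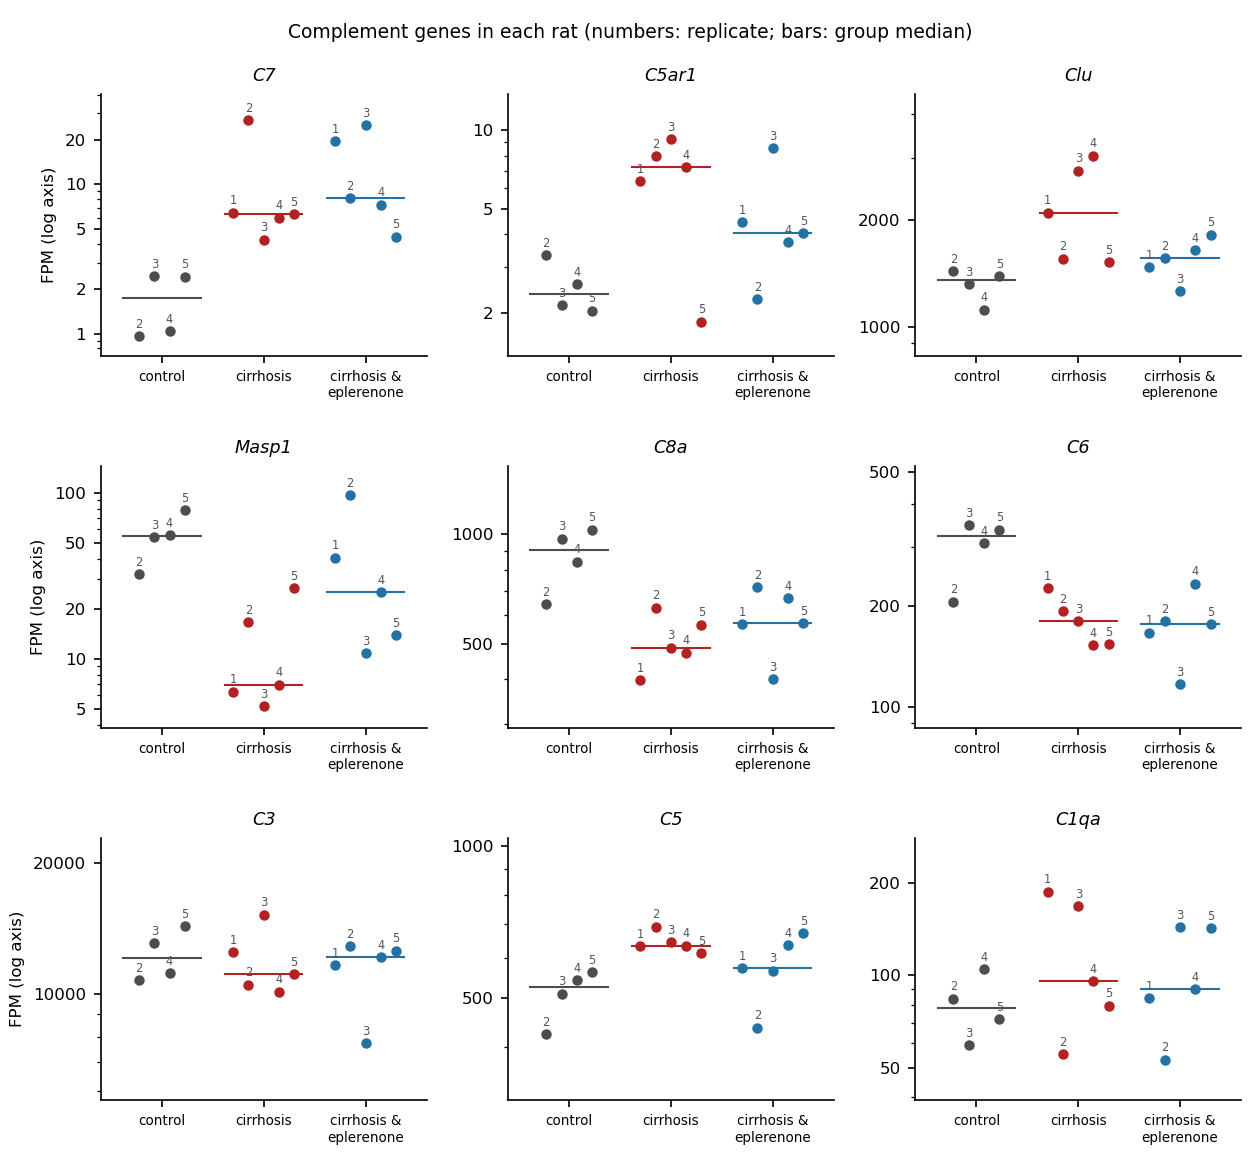
FPM (log axis) in each rat of the 6 genes called for cirrhosis against control (C7, C5ar1, Clu, Masp1, C8a, C6) and of C3, C5 and C1qa, with the replicate number at each point and a bar at the group median. C7 of every CCl4-treated rat lies above the controls, Masp1 of the cirrhosis rats lies at 5.18 to 26.6 below all controls (32.3 to 78.6), and C3 overlaps in all groups.

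C4bpa and C4bpb encode the chains of C4b-binding protein, the plasma regulator of the classical and lectin convertases. C4bpa had a log2FC of -0.35 (SE 0.17, adjusted p = 0.153) in cirrhosis and C4bpb 0.40 (SE 0.19, adjusted p = 0.146), and neither was called. The ratio of C4bpb to C4bpa reads was 0.642, 0.705, 0.772 and 0.613 in control and 1.17, 0.933, 1.43, 1.30 and 0.964 in cirrhosis, without overlap. With eplerenone it was 0.723, 0.624, 0.986, 0.852 and 1.27, from within the control range to within the cirrhosis range. In log2 the ratio was on average 0.75 higher in cirrhosis than in control and 0.40 lower with eplerenone than in cirrhosis. This ratio was 1 of 8 between partner genes that were examined, and those named here were picked after their values were seen, so that they are given without a test.

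**Figure D4:**
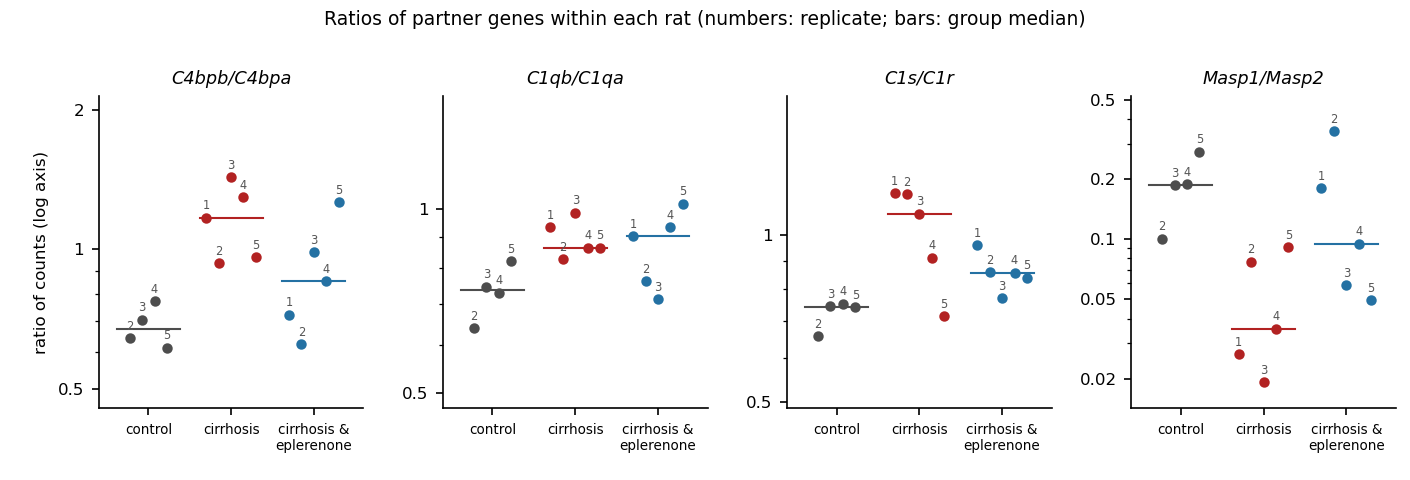
Ratio of reads (log axis) of 4 pairs of partner genes within each rat, with the replicate number at each point and a bar at the group median. C4bpb/C4bpa lies at 0.613 to 0.772 in control and at 0.933 to 1.43 in cirrhosis, and Masp1/Masp2 at 0.101 to 0.275 in control and at 0.0192 to 0.0912 in cirrhosis.

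C4bpa and C4bpb start 20.3 kb apart on the same strand, and the bases before them are shown because of their ratio in cirrhosis.
C4bpa, chr13:44663472-44663721, minus strand: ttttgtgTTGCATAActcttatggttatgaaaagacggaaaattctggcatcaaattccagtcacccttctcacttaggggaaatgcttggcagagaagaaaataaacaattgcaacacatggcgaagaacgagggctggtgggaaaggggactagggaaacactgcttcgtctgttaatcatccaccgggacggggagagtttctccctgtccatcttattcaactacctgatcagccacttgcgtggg
C4bpb, chr13:44683782-44684031, minus strand: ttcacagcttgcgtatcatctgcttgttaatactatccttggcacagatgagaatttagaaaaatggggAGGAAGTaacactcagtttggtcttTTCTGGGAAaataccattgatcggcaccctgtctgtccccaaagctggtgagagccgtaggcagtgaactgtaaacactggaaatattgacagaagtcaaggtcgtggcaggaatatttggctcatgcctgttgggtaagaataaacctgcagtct
The capitals mark TTGCNNAA in C4bpa, and AGGAAGT followed by TTCNNNGAA in C4bpb, without overlap. Neither motif of C4bpb was found in the 250 bases of C4bpa.

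The remaining soluble regulators were not called in any comparison. Vtn (vitronectin), which also blocks the attack complex, was 4923 to 5520 FPM in control and 2819 to 4844 FPM in cirrhosis, without overlap, with a log2FC of -0.40 (SE 0.26, adjusted p = 0.269). Serping1 (C1 inhibitor) had a log2FC of -0.17 (SE 0.24) in cirrhosis and -0.54 (SE 0.24, adjusted p = 0.211) with eplerenone. Cfi (factor I), the protease that inactivates C3b and C4b, had -0.06 (SE 0.19) and -0.22 (SE 0.19).

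Of the membrane regulators, Cd59, which stops C9 from entering the membrane, was 68.8 to 92.0 FPM in control and 29.3 to 62.0 FPM in cirrhosis, without overlap. Its log2FC was -0.80 (SE 0.30), which DESeq2 alone called (adjusted p = 0.0456, edgeR 0.0655), and with eplerenone it was 29.9 to 88.6 FPM (log2FC -0.46, SE 0.30). Cd46, a cofactor for factor I, was at 0.181 to 0.572 FPM in control and 0.222 to 1.79 FPM in cirrhosis, and its log2FC of 1.26 had an SE of 0.64 (adjusted p = 0.165). Cd55 (decay-accelerating factor) had 1 to 4 reads per control library and 5 to 31 per library of the CCl4-treated rats, too few to be tested.

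The receptors for the fragments C3a and C5a sit on myeloid cells. C5ar1 (ENSRNOG00000047800), the receptor for C5a, was 3.32, 2.14, 2.56 and 2.04 FPM in control, 6.38, 7.96, 9.22, 7.23 and 1.84 FPM in cirrhosis, and 4.45, 2.25, 8.54, 3.73 and 4.04 FPM with eplerenone. It rose 2.59-fold in cirrhosis (log2FC 1.38, SE 0.43, adjusted p = 0.038), although cirrhosis replicate 5 lay below all controls. The call was lost without cirrhosis replicate 1, 2, 3 or 4 or any 1 of the controls, at a log2FC of at least 1.22 and an adjusted p of at most 0.105. Cirrhosis replicate 5 was also the rat with the lowest monocyte and neutrophil sum of its group, a sum that is mostly Lyz2. Treated replicate 3 had both the highest C5ar1 and the highest sum of its group. Among cirrhosis rats, replicate 3 had the highest C5ar1 at a sum of 187 FPM, while replicate 4 had the highest sum (232 FPM). The part of these cells in the C5ar1 values was not tested. C3ar1, the receptor for C3a, was at 0.173 to 1.7 FPM over all rats and was not called (log2FC 0.62, SE 0.57, in cirrhosis and 1.05, SE 0.57, with eplerenone).

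Grouped by the cells that are known to make them, the medians of hepatocyte-made and of myeloid-made genes lay on different sides of 0 in cirrhosis. Of 19 hepatocyte-made genes, 17 were tested: 3 fell (Masp1, C8a and C6), 0 rose and 14 were not called, with a median log2FC of -0.09 in cirrhosis and -0.25 with eplerenone. Of the 6 myeloid-made genes (C1qa, C1qb, C1qc, Cfp, C3ar1 and C5ar1), 1 rose (C5ar1) and 5 were not called, and all 6 had a positive log2FC in both comparisons, with a median of 0.67 in cirrhosis and 0.59 with eplerenone. Over all protein coding genes 13.8% were called higher and 6.72% lower in cirrhosis. The hepatocyte-made median depended on the scaling and was 0.18 and 0.06 with libraries scaled to total counts. That scaling also moved the median log2FC of all genes, to 0.28 and 0.32, so the hepatocyte-made medians stayed below it. Of the 4 genes made by hepatocytes and other cells (C1r, C1s, Serping1 and Clu), 1 rose and 3 were not called. The lists were drawn up with earlier results of these data known, and the difference between them was not tested.

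Between cirrhosis & eplerenone and cirrhosis, 0 of the 31 genes were called by both tools and 0 by either alone, beside 0.0147% of all protein coding genes called by both and 0.492% called by DESeq2. At a p below 0.05 before adjustment in edgeR there were 2 (6.45%), beside 14.5% of all protein coding genes. By edgeR's quasi-likelihood test these were Masp1, with a log2FC of 1.60 (SE 0.57), and Clu, with -0.50 (SE 0.22). Their p-values in edgeR were 0.0136 and 0.0392 before adjustment and 0.312 and 0.33 after it. No gene of the 31 had values that did not overlap between the 2 groups, and the intervals of 23 lay within -1 and 1. C5ar1 came next in size at -0.50 (SE 0.39), then C2 at 0.47 (SE 0.32).

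The eplerenone values differed between the 2 leading label numbers. Values by number are differences of the mean of log2(FPM + 0.5) and not edgeR fits. The added 0.5 shrinks them where levels are low, as for C3ar1. Masp1 was 2.86 higher in log2 with eplerenone than without among rats numbered 15 (2 and 3 rats) and 0.18 higher among those numbered 20 (3 and 2 rats). Clu was 0.46 and 0.47 lower. Of the myeloid-made genes, C1qa, C1qb, C1qc, Cfp and C5ar1 took opposite signs, with -0.84 and 0.49 for C1qa and -1.16 and 0.39 for C5ar1. C3ar1 did not (0.04 and 0.42 higher), and C7 was 0.44 and 0.59 higher. With the number as a term in a fit of the CCl4-treated rats alone, Masp1 had a log2FC of 1.43 (adjusted p = 0.54), beside 1.60 (adjusted p = 0.477) without the term. Leaving out cirrhosis replicate 5 and treated replicate 3, the rats farthest from their groups on the first principal component, changed the call: Masp1 (log2FC 2.30, adjusted p = 0.026) and C5ar1 (log2FC -1.10, adjusted p = 0.0282) were then called, in a fit that called 9.15% of all genes tested. These 2 rats were chosen for their distance. Cirrhosis replicate 5 (13.03) lay toward the controls and treated replicate 3 (-42.6) lay among the cirrhosis rats. Leaving out both therefore sets the 2 groups further apart by choice, and these calls cannot show an effect of eplerenone. With either of them left out alone 0 of the 31 genes were called.

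Complement genes outside the 34 were called in both directions as well. Of 22 such genes (receptors, collectins, ficolins and regulators), 20 were tested, and in cirrhosis 4 rose, 5 fell and 11 were not called, beside the 13.8% and 6.72% of all protein coding genes called higher and lower. Fcnb, a ficolin of myeloid cells, rose from 0.213 ± 0.145 (SD, n = 4) to 2.32 ± 1.39 FPM (SD, n = 5; log2FC 3.41, SE 0.74, adjusted p = 0.00719), and Itgax, a chain of complement receptor 4, from 0.924 ± 0.388 to 8.01 ± 3.03 FPM (log2FC 3.11, SE 0.51, adjusted p = 0.00164). In controls Fcnb was at 0.0578 to 0.366 FPM, near the level of 3 reads, so its log2FC rests on few reads there. Colec12 and Cr1l rose as well (log2FC 1.98 and 0.52). Among those that fell were Colec10, a collectin of the lectin pathway, from 32.6 ± 1.95 to 7.55 ± 5.49 FPM (log2FC -2.11, SE 0.54, adjusted p = 0.0149), and Colec11, C1rl and Cfhr2 (log2FC -0.75, -0.74 and -1.14). Colec10 and Colec11 act in the same pathway as Masp1, whose product their proteins can carry. With eplerenone 3 of the 20 were called higher against control (Fcnb, Itgax and Colec12), beside 4.50% of all protein coding genes, and 0 lower. Against cirrhosis 0 were called, and 3 passed a p below 0.05 before adjustment (Cfhr2 0.80, Colec10 1.12 and Vsig4 1.32 in log2FC). Vsig4, the complement receptor of resident macrophages, had a log2FC of -1.63 (SE 0.62, adjusted p = 0.0732) in cirrhosis.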

How the data were processed

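Poly(A) RNA of rat liver was sequenced by the authors from both ends (150 bp). Per the labels, HISAT2 2.1.0 mapped the reads to rn6, and featureCounts counted them per gene. A read with several places in the genome adds to the count at every one of them. Whether strand was used is not given in the sources used here. The deposited table holds raw counts per gene, with no normalization. Rats were grouped by treatment as labelled.

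Genes were filtered with filterByExpr (smallest count 10) of edgeR 4.0.16 in R 4.3.3, scaled by TMM, and fitted as 3 groups in 1 model, by edgeR's quasi-likelihood test and by the Wald test of DESeq2 1.42.0, with Benjamini-Hochberg adjustment over all 14417 genes. DESeq2 gave no p-value for 16 genes in the comparison of cirrhosis with control, and a gene without an adjusted p was not called. FPM was computed over TMM library sizes. Intervals are at 95%, and floors of 3 counts cover counting error only.

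The genes, lists and tests were chosen with earlier results of these data known. Values per rat are given for called genes, for C3, C1qa and C5, and for the 3 largest absolute log2FC between the CCl4 groups at a mean of at least 1 FPM. Promoters, 250 bases before each start, came from RefSeq (GRCr8). Partner ratios are outside this rule. The value of 1 gene in the list outside the 34 is not reported here. Alternatives were each tool alone, other scalings and count filters, the replicate block, the label number as a term, and rats left out.

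Replicate numbers were checked as pairs: 3 of 13 pairs with the same number had a correlation above 0.1 (range -0.336 to 0.293), so they name rats only.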

Additional observations from a re-analysis of the deposited data

Results flagged for a closer look

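In 93 groups of 4 or 5 rats (31 genes in 3 groups), 4 single rats lay farther from the nearest other rat of their group than Dixon's 95% limit allows, where chance gives about 1 in 20, or 4.65. C7 was 27.1 FPM in cirrhosis replicate 2, with the next rat at 6.49 FPM. C3 was 7735 FPM in treated replicate 3, with the next at 11685 FPM. C8b, the beta chain of C8, was 565 FPM in cirrhosis replicate 5, with the next at 345 FPM, and C1r was 899 FPM in the same rat, with the next at 710 FPM. Cirrhosis replicate 5 and treated replicate 3 are also the rats farthest from their groups on the first principal component of the 500 genes that varied most, and a part of that distance in these values was not tested.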

How the results depend on the processing

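For cirrhosis against control, 6 genes were called. The number was 6 with edgeR alone, 8 with DESeq2 alone and 1 to 7 when 1 rat was left out, with C7 called in each of the 14 fits. It was 3 (Masp1, C7 and Cd59) with the replicate block, whose numbers do not pair the rats. For cirrhosis & eplerenone against control, 2 genes were called, 1 with total counts, with no filter on low counts, with 10 counts in every sample or with 4 samples per group (C7 each time), 0 with the replicate block and 0 to 2 with 1 rat left out. Between the CCl4 groups the number was 0 in every fit, the replicate block included, except 2 with 4 samples per group. Scaling to total counts moved the median log2FC of hepatocyte-made genes to 0.18 (cirrhosis against control) and 0.057 (treated against control), and that of all genes to 0.28 and 0.32. Log2FC values near 0 turned sign. C3 in cirrhosis was 0.23 with total counts, 0.0046 with 10 counts in every sample and -0.15 to 0.023 with 1 rat left out, and in the eplerenone group against control 0.17 with total counts. Between the CCl4 groups, with 1 rat left out, C3 ran from -0.12 to 0.041, C6 from -0.18 to 0.042, C1qa from -0.37 to 0.040 and C7 from -0.054 to 1.16, and with 4 samples per group C3 was 0.0083 and C7 -0.17. The cause of these turns was not tested. The fit of CCl4-treated rats alone without the label number was chosen after seeing the data. Of the calls among the 34 genes, C7 in cirrhosis was kept in every fit without 1 rat, and each of the others was lost in some. The calls of genes outside the 34 were not examined in this way. Cd46 and C3ar1 had few reads (3 to 42 per library), and Cfb and Cd55 could not be tested.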
